A study of Caenorhabditis elegans with 4 samples.

Results

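The genes described here are the Hedgehog-related and patched-related genes of C. elegans, taken as every gene whose symbol is wrt-, grd-, grl-, hog-, qua-, ptr- or ptc- followed by a number. The RefSeq table of the WBcel235 assembly holds 88 such genes, and 85 of them had a usable probe on the arrays, out of 20447 genes tested in all. They comprised 10 wrt (warthog), 16 grd (groundhog), 32 grl (ground-like), 1 hog, 1 qua (quahog), 22 ptr (patched-related) and 3 ptc (patched) genes. No usable probe named ptr-10, ptr-16 or grd-1, and these 3 genes have no value here. Among the 88 genes, ptc-2, grl-32 and grd-17 are listed as pseudogenes.

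C. elegans lacks a canonical Hedgehog and Smoothened but carries large families of secreted Hedgehog-related proteins, several of which share the autoprocessing Hog domain of Hedgehog. Many of these genes are transcribed in the epidermis and other cells that face the cuticle, and several of their products are parts of the apical extracellular matrix that is renewed at each molt. The patched and patched-related proteins are membrane proteins with a sterol-sensing domain, and a number of them are needed for molting, growth, vesicle traffic or cell division.

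The study asked which transcripts differ between aged worms that move poorly and aged worms that still move well. Whole wild-type N2 worms grown at 20 °C were sorted on adult day 7 to 8 by maximum velocity (MV), the fastest locomotion during a recording without food. Low MV worms moved at less than 0.22 mm/sec, the remaining worms were high MV, and each group was measured on 2 single-colour Agilent arrays, 1 per RNA sample. Both groups share strain, age and temperature, each sample pools worms, and nothing states that the 2 samples of a group came from separate cultures, so that p-values measure the spread between these samples, which may be technical. The low MV samples were hybridized on 1 slide and read in 1 scan, the high MV samples on another slide in another scan, so that slide and group cannot be told apart. In RNA of whole worms, fewer cells of a type and less RNA per cell cannot be told apart either.

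Each array held 43803 spots that are not controls, of which 84.6% to 87.7% were well above background, and no spot was saturated. The values below are log2 intensities after background subtraction by the scanner software and quantile normalization between arrays, for the brightest probe of each gene, and a fold change is always low MV over high MV. Levels of different probes are not comparable. The replicates correlated at 0.996 in low MV and 0.993 in high MV over all genes, and arrays of different groups at 0.973 to 0.975. A gene was called when limma, fitted on all 20447 genes, gave an adjusted p under 0.05 and an absolute log2 fold change over 0.58 (1.5-fold). A gene counts as present when its signal passed a cutoff between dim and bright probes, at 6.65 to 6.67, on both arrays of at least 1 group.

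Hedgehog-related and patched-related transcripts were more often higher than lower in low MV worms. Of the 85 genes, 37 rose, 10 fell and 38 were not called by limma, with a median log2 fold change of 0.60 against 0.06 over all genes tested. The rises made up 43.5% of the 85 genes, where 20.5% of all genes were called higher, and the falls 11.8%, where 14.3% of all genes were called lower. By sign alone, 62 genes were higher in low MV and 23 lower. The groups did not overlap, with low MV on top, for 56 of the 85 genes, beside 42.5% of all genes, and with low MV below for 18, beside 35.8% of all genes. The rises came from every one of the 4 large families, while the falls were spread over wrt-3, grd-4, grd-5, grd-7, grd-14, grl-4, grl-18, grl-22, grl-26 and ptr-20. The share of rises was above that of all genes both for present genes and for those not present. Of the 47 present genes, 18 were called higher (38.3%, against 20.6% of all present genes) and 7 lower. Of the 38 genes that were not present, 19 were called higher (50%, against 20.2% of all such genes) and 3 lower.

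The number of calls depended on the arrays and on the scaling, while the sign of the median did not. Without low MV replicate 1, or without low MV replicate 2, limma called no gene of the 20447, and so none in any of the families, with a smallest adjusted p of 0.0747 without replicate 1 and 0.0687 without replicate 2. The median log2 fold change of the 85 genes was then 0.54 without replicate 1 and 0.65 without replicate 2, beside 0.06 over all genes in both fits. Fitted over present genes, 21 of 47 were higher (21.8% of all) and 8 lower (17.0% of all). The median of these 47 genes was 0.39 without low MV replicate 1 and 0.52 without low MV replicate 2. Over all present genes it was 0.01 in both fits. Scaling each array to its 75th percentile moved the median of all genes to 0.18 and called 50 of the 85 genes higher (28.2% of all) and 6 lower (14.2% of all). Scaling to the spike-in probes moved the median of all genes to -0.19 and called 17 higher (6.15% of all) and 7 lower (9.91% of all). Normexp is a background correction that adds an offset and compresses dim signals. With it, 8 were called higher (6.81% of all) and 0 lower (6.09% of all). The median log2 fold change of the 85 genes was 0.82 at the 75th percentile, 0.45 with the spike-in probes and 0.08 with normexp. The 3 genes wrt-6, grl-14 and ptr-4 were called higher under all 5 of these scalings, corrections and tables, the deposited log2 table included.

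**Figure D1:**
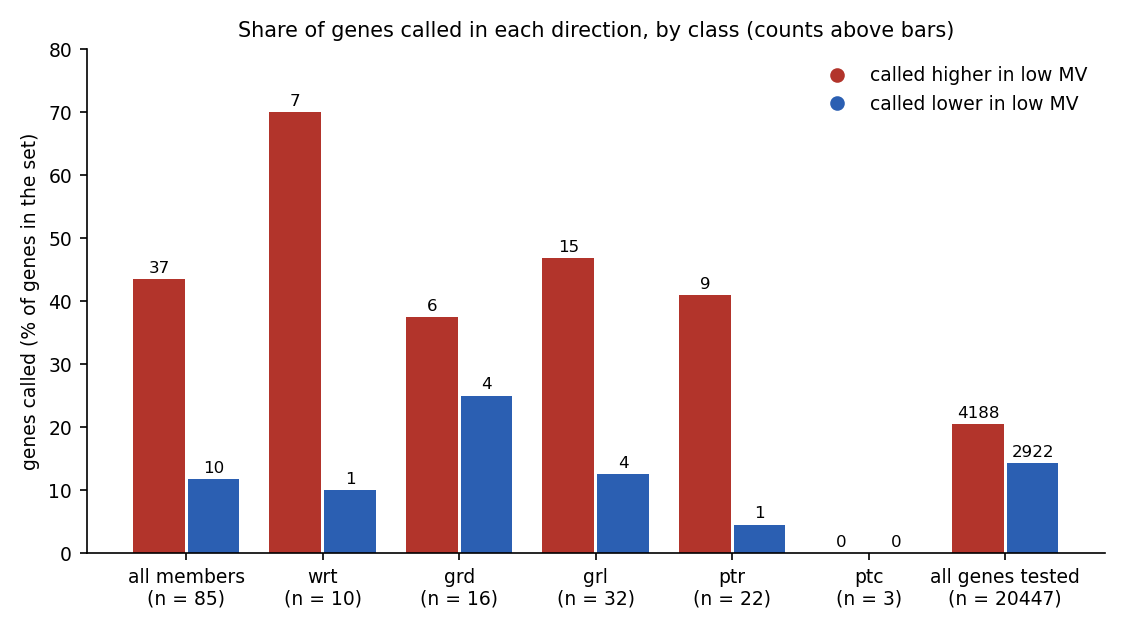
Share of genes called in each direction by limma, in percent of the genes of each set, with counts above the bars. Rises (left bar of each pair) made up 70.0% of the 10 wrt genes and 43.5% of all 85 genes, beside 20.5% of all genes tested, and no ptc gene was called.

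The warthog genes had the largest share of rises. Of 10 wrt genes, 7 rose in low MV worms, 1 fell and 2 were not called, and the median log2 fold change was 1.26. For wrt-8 the log2 intensities were 5.22 and 4.74 in low MV and 1.13 and 1.99 in high MV. Both high MV arrays lay below both low MV arrays, and the probe was not well above background on either of them. Its means were 4.98 ± 0.34 in low MV and 1.56 ± 0.61 in high MV (SD, n = 2 each, limma adjusted p = 0.011). The rise between these means was at least 5.41-fold, or 2.44 in log2. The bound leaves out the spread between samples, and the 95% interval of the fit, 2.39 to 4.45, reached below it. This bound sets the low MV mean against the lowest signal that was well above background on each high MV array, and it holds for background-subtracted values: the wrt-8 log2 fold change was 0.93 in the deposited log2 table, which is not background-subtracted, and 0.13 with normexp, where it was not called.

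The promoter of wrt-2 is commonly used to mark seam cells, the stem-like cells of the epidermis. Its log2 intensities were 7.43 and 6.22 in low MV and 3.22 and 4.19 in high MV. The 2 samples of each group lay about a log2 unit apart, and the groups did not overlap. Expressed as a log2 fold change, wrt-2 changed by 3.12 ± 0.56 (SE, limma adjusted p = 0.022). This value was 1.69 in the deposited log2 table and 0.38 with normexp, where wrt-2 was not called. For wrt-1, log2 intensities of 8.42 and 7.72 in low MV stood against 5.89 and 6.61 in high MV, again without overlap, a log2 fold change of 1.81 ± 0.37 (SE, adjusted p = 0.029).

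The arrays of a group lay closer together for wrt-6 and wrt-10. For wrt-6 the low MV arrays gave 9.06 and 9.23 and the high MV arrays 7.73 and 7.66, a log2 fold change of 1.45 ± 0.11 (SE, adjusted p = 0.0095). Its other probes had smaller fold changes: the log2 fold changes of the 5 wrt-6 probes ran between 0.44 and 1.45, and 2 of them were called. Transcript wrt-10, whose secreted product has been tied in worms to a signal from the epidermis that bears on oocyte quality, had log2 intensities of 13.1 and 13.2 in low MV and 11.8 and 11.7 in high MV. The samples of a group nearly coincided, and wrt-10 was 2.65-fold higher in low MV (log2 fold change 1.41 ± 0.10, SE, adjusted p = 0.0095).

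The remaining rises in the family were smaller. In low MV wrt-4 rose 1.76-fold. Transcript wrt-9 was not well above background in high MV, with means of 3.58 in low MV and 2.47 in high MV. In background-subtracted values the rise between these means was at least 1.99-fold, or 0.99 in log2. This bound leaves out the spread between samples, and the 95% interval of the fit, 0.61 to 1.62, reached below it. The wrt-9 log2 fold change was 0.25 in the deposited log2 table and 0.04 with normexp. Neither wrt-4 nor wrt-9 was called there or with the spike-in scaling. The only warthog gene that fell was wrt-3, with 8.11 and 8.26 in low MV and 9.08 and 9.34 in high MV. Both of its probes were called lower, at log2 fold changes of -1.40 and -1.02. The essential gene wrt-5 had a log2 fold change of -0.49 (adjusted p = 0.039), short of the fold threshold, and wrt-7 one of -0.31 (adjusted p = 0.29). Without high MV replicate 1 the number of wrt rises was 3, and it was 4 with the spike-in scaling and 2 with normexp.

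**Figure D2:**
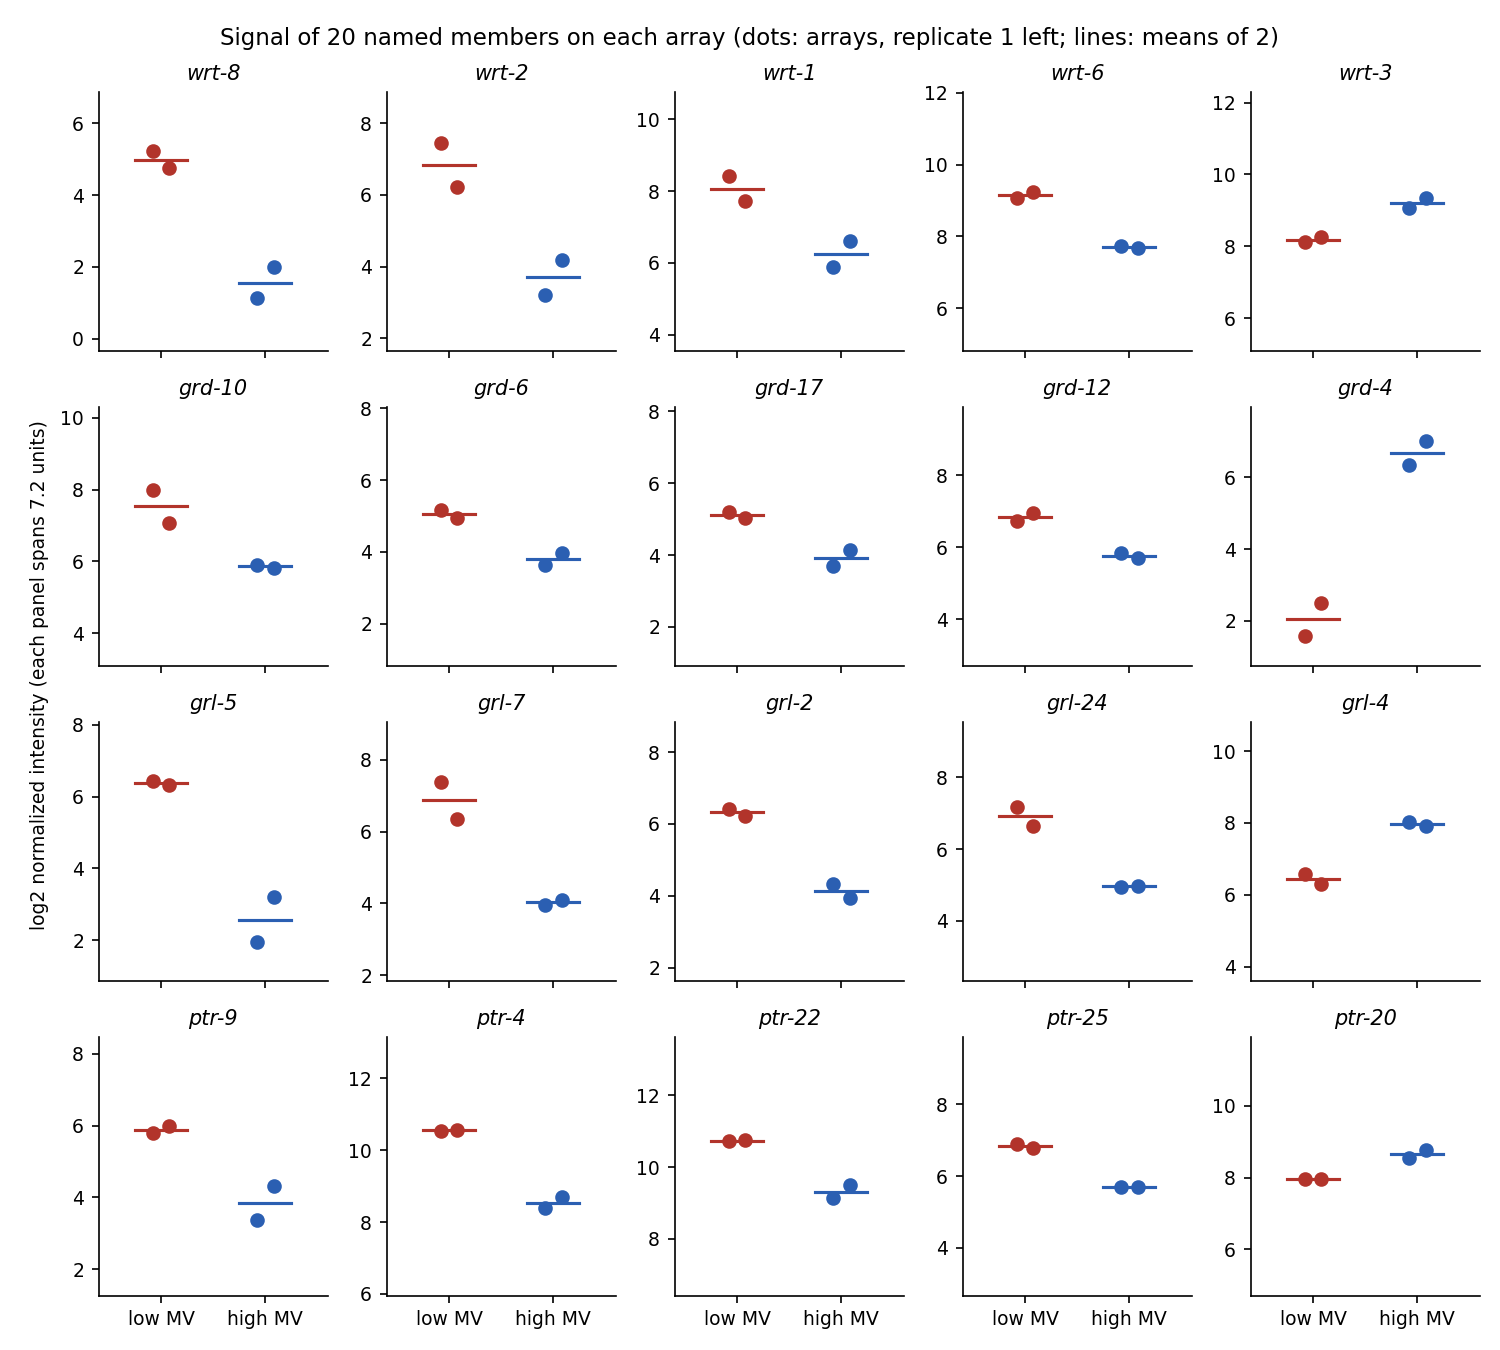
Log2 normalized intensity of 20 of the genes on each array, with low MV left of high MV in every panel, dots for the arrays and lines for the means of 2. The last column holds genes that fell in low MV, wrt-3, grd-4, grl-4 and ptr-20, and in wrt-2 and grl-7 the low MV arrays stand about a log2 unit apart.

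The groundhog family had calls in both directions. Of 16 grd genes, which encode secreted proteins with the cysteine-rich ground domain, 6 rose in low MV worms, 4 fell and 6 were not called. The rises made up 37.5% and the falls 25%, beside 20.5% and 14.3% of all genes tested. The median log2 fold change of the grd genes was 0.34. Among the falls was that of grd-4. Its log2 intensities were 1.58 and 2.50 in low MV and 6.34 and 7.00 in high MV. The transcript was not well above background on either low MV array and was well above it on both high MV arrays. The grd-4 means were 2.04 ± 0.65 in low MV and 6.67 ± 0.47 in high MV (SD, n = 2 each, limma adjusted p = 0.0097). The fall between these means was at least 17.7-fold, or 4.15 in log2. This bound leaves out the spread between samples, and the 95% interval of the fit, -5.80 to -3.46, included smaller falls. In the deposited log2 table the grd-4 log2 fold change was -1.76, and with normexp it was -0.31 and not called.

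The neighbouring gene grd-14 fell as well, with 5.99 and 5.86 in low MV and 6.58 and 7.01 in high MV (log2 fold change -0.87 ± 0.18, SE, adjusted p = 0.030). For grd-5 the values were 6.66 and 6.54 in low MV and 7.84 and 8.45 in high MV (log2 fold change -1.55 ± 0.24, adjusted p = 0.017). For grd-7 they were 6.22 and 5.95 in low MV and 7.44 and 7.67 in high MV (log2 fold change -1.47 ± 0.16, adjusted p = 0.011). In each of these 3 genes the low MV samples were the 2 lowest. A further member, grd-3, had 6.96 and 6.24 in low MV and 7.31 and 8.18 in high MV, and its log2 fold change of -1.15 did not pass the test (adjusted p = 0.097).

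Among the grd genes that rose, grd-10 changed most, with 8.00 and 7.08 in low MV and 5.91 and 5.80 in high MV. The low MV samples were nearly a log2 unit apart, both above high MV, with a log2 fold change of 1.68 ± 0.35 (SE, adjusted p = 0.029). For grd-6 the log2 intensities were 5.18 and 4.93 in low MV and 3.65 and 3.98 in high MV, a 2.37-fold rise (adjusted p = 0.015). The gene listed as a pseudogene, grd-17, had 5.196 and 5.04 in low MV and 3.71 and 4.15 in high MV, and both of its probes were called higher. For grd-12 the values were 6.73 and 6.96 in low MV and 5.84 and 5.70 in high MV, a 2.11-fold rise (adjusted p = 0.013). The rises of grd-16 and grd-11 were 1.89-fold and 1.70-fold. The uncalled grd genes ranged from -1.15 to 0.45 in log2 fold change. With the spike-in scaling 3 grd genes were called higher (6.15% of all genes) and with normexp 0 (6.81% of all genes). With only genes of a mean above the present cutoff the grd median was -0.43.

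The ground-like genes, the largest of the families, gave the most rises. Of 32 grl genes, which carry a shorter relative of the ground domain, 15 rose in low MV, 4 fell and 13 were not called, with a median log2 fold change of 0.72. For grl-5 the log2 intensities were 6.44 and 6.32 in low MV and 1.94 and 3.20 in high MV. The probe was well above background on both low MV arrays and on 1 of the 2 high MV arrays, and the value of 1.94 lies under the lowest well measured signal of that array, 2.75. The fitted log2 fold change of 3.81 ± 0.46 (SE, adjusted p = 0.012) rests in part on that value, and it was 1.61 in the deposited log2 table and 0.27 with normexp.

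For grl-7 the low MV arrays gave 7.39 and 6.35 and the high MV arrays 3.96 and 4.09. The low MV samples differed from each other by about a log2 unit and stayed far above high MV, with a log2 fold change of 2.85 ± 0.39 (SE, adjusted p = 0.014). The other grl-7 probe was also called higher, at 1.56. The grl-7 log2 fold change was 1.66 in the deposited log2 table and 0.35 with normexp, where it was not called.

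The promoter of grl-2 is active in cells of the excretory duct and pore. Its log2 intensities were 6.43 and 6.23 in low MV and 4.34 and 3.95 in high MV, a 4.56-fold rise (adjusted p = 0.0095). For grl-24 they were 7.18 and 6.65 in low MV and 4.94 and 4.98 in high MV, a 3.87-fold rise (adjusted p = 0.011). For grl-15 they were 7.89 and 7.65 in low MV and 5.77 and 6.0 in high MV, a 3.70-fold rise (adjusted p = 0.0095). In all 3 the groups were separated by more than a log2 unit.

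The other 10 rises in the family, those of grl-21, grl-9, grl-14, grl-8, grl-11, grl-13, grl-12, grl-25, grl-23 and grl-6, lay between 1.83-fold and 3.22-fold. All 5 grl-21 probes were called higher, at log2 fold changes of 1.69 to 1.97. Transcript grl-14, which was called under every scaling, had 8.65 and 8.75 in low MV and 7.06 and 7.28 in high MV, values that are close within each group and well apart between groups.

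Among the grl genes that fell, grl-4 changed most, with 6.59 and 6.31 in low MV and 8.03 and 7.91 in high MV (2.87-fold lower in low MV, adjusted p = 0.0098). For grl-22 the values were 5.94 and 5.995 in low MV and 6.99 and 7.26 in high MV (2.23-fold lower in low MV, adjusted p = 0.012). The falls of grl-26, 1.6-fold, and of grl-18, a gene whose promoter is used to label socket glia, 1.54-fold, were close to the fold threshold.

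The 13 uncalled grl genes ranged from -0.38 to 0.75. For grl-10 the log2 intensities were 10.4 and 10.5 in low MV and 10.5 and 10.4 in high MV, with a log2 fold change of -0.03 and no separation of the groups. For grl-16 the choice of probe mattered: the brightest of its 3 probes gave 0.69 (adjusted p = 0.051) and the other probes, which were called, gave up to 1.46. For grl-28 none of the 6 probes was well above background on all 4 arrays. With the spike-in scaling 8 of the 32 grl genes were called higher, beside 6.15% of all genes. With normexp 2 of the 32 were, beside 6.81% of all genes.

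**Figure D3:**
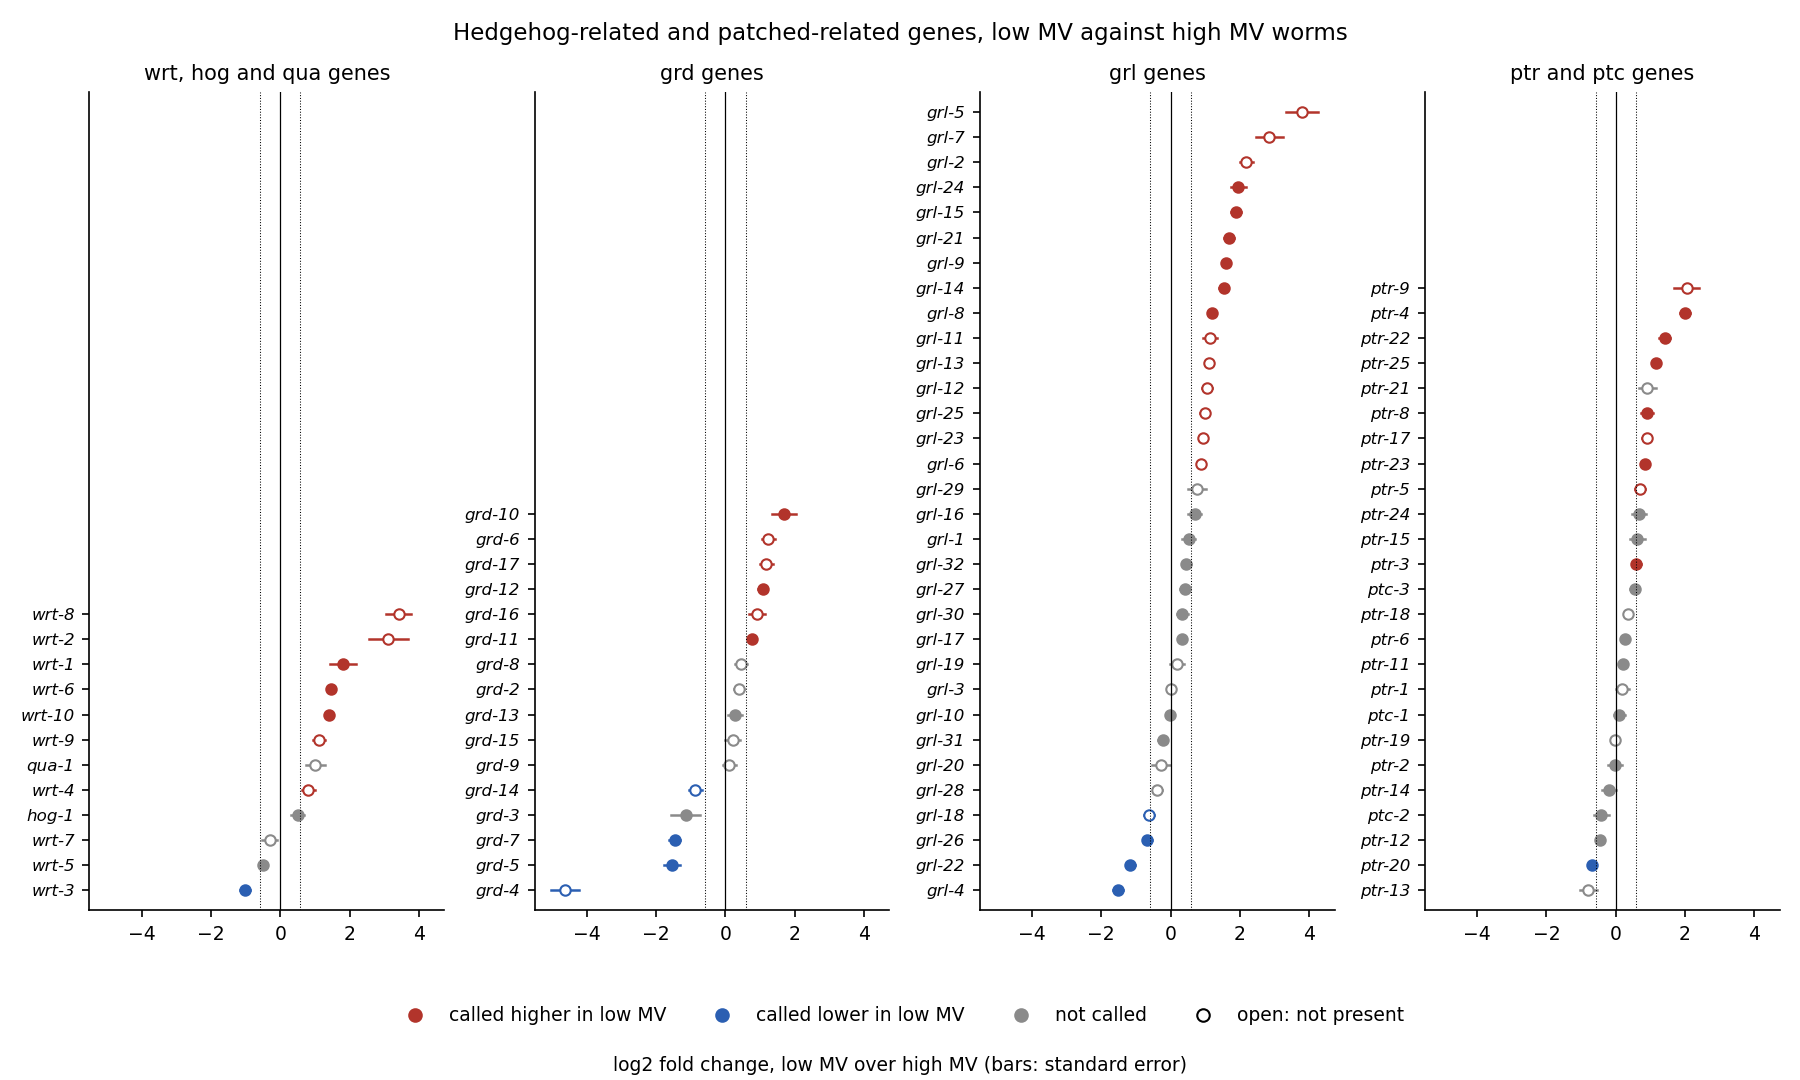
Log2 fold change, low MV over high MV, of the 85 genes by family, with bars for the standard error, red for called higher, blue for called lower, grey for not called and open symbols for genes that were not present. To the right of 0 lie 70% of the wrt, 68.8% of the grd, 75% of the grl and 72.7% of the ptr genes. Transcript grd-4, not well above background in low MV, stands alone at a fitted -4.63, and the ptr genes span -0.79 to 2.04.

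The single hog gene and the single qua gene were not called. Transcript hog-1, which encodes a protein with a Hog domain, had 7.59 and 7.24 in low MV and 6.75 and 7.09 in high MV, with a log2 fold change of 0.50 (95% interval -0.06 to 1.05, adjusted p = 0.12). Transcript qua-1, whose product is a large secreted Hog-domain protein needed for molting, had 6.33 and 5.62 in low MV and 4.98 and 4.95 in high MV. Both low MV samples lay above high MV but well apart from each other, and the log2 fold change of 1.01 (95% interval 0.24 to 1.78) missed the threshold (adjusted p = 0.051). At the 75th percentile both genes were called higher, hog-1 at 0.79 (adjusted p = 0.048) and qua-1 at 1.39 (adjusted p = 0.021), and qua-1 also with the trended and robust prior (adjusted p = 0.024) and among genes well above background on all arrays (adjusted p = 0.028).

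Among the patched-related genes, 9 of 22 ptr genes rose in low MV worms, 1 fell and 12 were not called, with a median log2 fold change of 0.61. Among the rises was that of ptr-4, a patched-related gene needed in the epidermis for molting and for the apical matrix. Its log2 intensities were 10.5 and 10.6 in low MV and 8.39 and 8.69 in high MV. The low MV samples nearly coincided, and all 6 ptr-4 probes were called higher at log2 fold changes of 1.88 to 2.01. By its brightest probe ptr-4 was 4.04-fold higher in low MV (adjusted p = 0.0095).

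In background-subtracted values the change of ptr-9, which was not present, was of the same size but less tightly measured. It had 5.79 and 5.97 in low MV and 3.36 and 4.32 in high MV (log2 fold change 2.04 ± 0.36, SE, adjusted p = 0.021). In the deposited log2 table ptr-9 had a log2 fold change of 0.996 and ptr-4 one of 1.98. With normexp they had 0.17 and 1.36, and only ptr-4 was called. For ptr-22 the arrays gave 10.7 and 10.7 in low MV and 9.13 and 9.49 in high MV, a 2.68-fold rise (adjusted p = 0.011). For ptr-25 they gave 6.90 and 6.79 in low MV and 5.69 and 5.70 in high MV, a 2.22-fold rise (adjusted p = 0.0096). In these 3 genes the lower low MV sample exceeded the higher high MV sample by more than a log2 unit. For ptr-8 the values were 9.80 and 9.82 in low MV and 8.70 and 9.12 in high MV, a 1.86-fold rise (adjusted p = 0.026). The other ptr genes that rose were ptr-17, ptr-23, ptr-5 and ptr-3, at 1.51-fold to 1.86-fold.

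The single fall among the ptr genes was that of ptr-20, with 7.96 and 7.98 in low MV and 8.54 and 8.77 in high MV (1.61-fold lower in low MV, adjusted p = 0.022). The probe of ptr-2, a gene with roles in the reproductive tract and the embryo, gave 14.2 and 14.2 in low MV and 14.5 and 13.97 in high MV. The 2 low MV values lay between the 2 high MV values, and the log2 fold change was -0.02. For ptr-19 no array gave a signal well above background. Uncalled ptr genes ranged from -0.79 to 0.91, the value of ptr-21 (adjusted p = 0.050). At the 75th percentile 14 ptr genes were called higher (28.2% of all genes), with the spike-in scaling 2 (6.15%) and with normexp 4 (6.81%).

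The patched genes proper, the closest relatives of the Hedgehog receptor, did not pass both thresholds in the fit over all genes. For ptc-1, which is needed for cytokinesis in the germ line, the values were 13.3 and 13.2 in low MV and 13.3 and 13.0 in high MV. The groups overlapped, the log2 fold change was 0.11 (95% interval -0.35 to 0.57, adjusted p = 0.62), and the sign was not stable: its 6 probes ran between -0.47 and 0.13, and the value was -0.17 at the 75th percentile and -0.54 with the spike-in scaling. For ptc-3, which is needed for growth, molting and water balance, they were 9.59 and 9.44 in low MV and 9.05 and 8.87 in high MV. The groups did not overlap, and the log2 fold change of 0.55 (95% interval 0.20 to 0.90, adjusted p = 0.035) stayed under the fold threshold, which 1 of the 4 ptc-3 probes passed. Transcript ptc-3 was called higher at the 75th percentile (log2 fold change 0.72, adjusted p = 0.018) and in the deposited log2 table (0.60, adjusted p = 0.0087). For ptc-2, listed as a pseudogene, they were 9.96 and 9.90 in low MV and 10.6 and 10.1 in high MV, with a log2 fold change of -0.42 (95% interval -1.03 to 0.19, adjusted p = 0.19). Of the 5 ptc, hog and qua genes, 0 were called by limma, 2 had an unadjusted p under 0.05 and 1 of these passed the fold, the methods' t-test called 0 and limma with a trended and robust prior called 1, while hog-1, qua-1 and ptc-3 were called at the 75th percentile.

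Genes that lie next to each other in the RefSeq order did not all have the same sign. The 85 genes form 7 adjacent pairs, and 4 of these pairs had the same sign and 3 opposite signs. Of the 7 pairs, 0 were called in opposite directions. The neighbours wrt-1 and wrt-10 both rose, as did grl-9 and grl-8, and grd-14 and grd-4 both fell. The pair grd-3 and grd-10 had values of -1.15 and 1.68, of which only the second was called.

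The samples of a group were not equally close for all of these genes. A difference of more than 0.5 in log2 intensity between the 2 low MV arrays was found for 9 of the 85 genes, and 7 of these, wrt-1, wrt-2, grd-3, grd-10, grl-7, grl-24 and qua-1, were higher in low MV replicate 1. Between the 2 high MV arrays such a difference was found for 15 genes, of which 5 were higher in high MV replicate 1. Other transcripts also stood higher in low MV replicate 1, among them the pharyngeal myosin gene myo-2, with 8.59 in low MV replicate 1, 6.26 in low MV replicate 2 and 5.0 and 5.24 in high MV. The yolk gene vit-6 had 16.3 in low MV replicate 1, 14.5 in low MV replicate 2 and 15.2 on both high MV arrays. Their part in the values of the 7 genes was not tested.

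Several genes that act around Hedgehog and Patched in other animals, or that share the sterol-sensing fold, were also higher in low MV worms. A list of 16 such genes was chosen from background knowledge, with earlier results of these data known. Of these, 6 rose, 1 fell and 9 were not called, with a median log2 fold change of 0.52. Over all genes tested, 20.5% were called higher and 14.3% lower. The largest changes were those of the acyltransferase-like genes, named after the enzyme that attaches a lipid to Hedgehog. For hhat-1 the log2 intensities were 7.12 and 6.60 in low MV and 4.46 and 4.81 in high MV, a 4.66-fold rise (adjusted p = 0.011). For hhat-2 they were 10.5 and 10.9 in low MV and 8.74 and 9.16 in high MV, a 3.25-fold rise (adjusted p = 0.014). Neither gene showed overlap between the groups.

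Most of the relatives of Patched and Dispatched in the list rose as well, while ptd-2 was not called at a log2 fold change of 0.02. The patched-related gene daf-6, which shapes the channel of the amphid sheath glia, had 7.36 and 7.63 in low MV and 6.06 and 6.48 in high MV, a 2.34-fold rise (adjusted p = 0.019). The Dispatched-related gene che-14, which serves apical secretion in epidermal and sensory organ cells, had 8.52 and 8.50 in low MV and 7.57 and 7.51 in high MV, a 1.97-fold rise (adjusted p = 0.0100). The Niemann-Pick C1 relatives ncr-2 and ncr-1, which act in sterol transport, rose 2.23-fold and 1.74-fold. The gene that fell was scp-1, which encodes the SREBP-cleavage activating protein, with 11.4 and 11.4 in low MV and 11.99 and 12.1 in high MV (1.54-fold lower in low MV, adjusted p = 0.019). The worm relative of the Hedgehog-regulated Gli factors, tra-1, which in worms sets sexual fate, had a log2 fold change of -0.28 (95% interval -0.99 to 0.43, adjusted p = 0.41). The megalin-like receptor gene lrp-1, needed for molting, had 0.56 (adjusted p = 0.030), below the fold threshold. The heparan sulfate polymerase genes rib-1 and rib-2 gave 0.10 and -0.21, and the kinase genes gsk-3, kin-19, kin-1 and kin-2 gave 0.41 to 0.68, none of them called. With the spike-in scaling 2 genes of the list were called higher, with normexp 1, and without low MV replicate 1 or without low MV replicate 2 limma called 0.

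**Figure D4:**
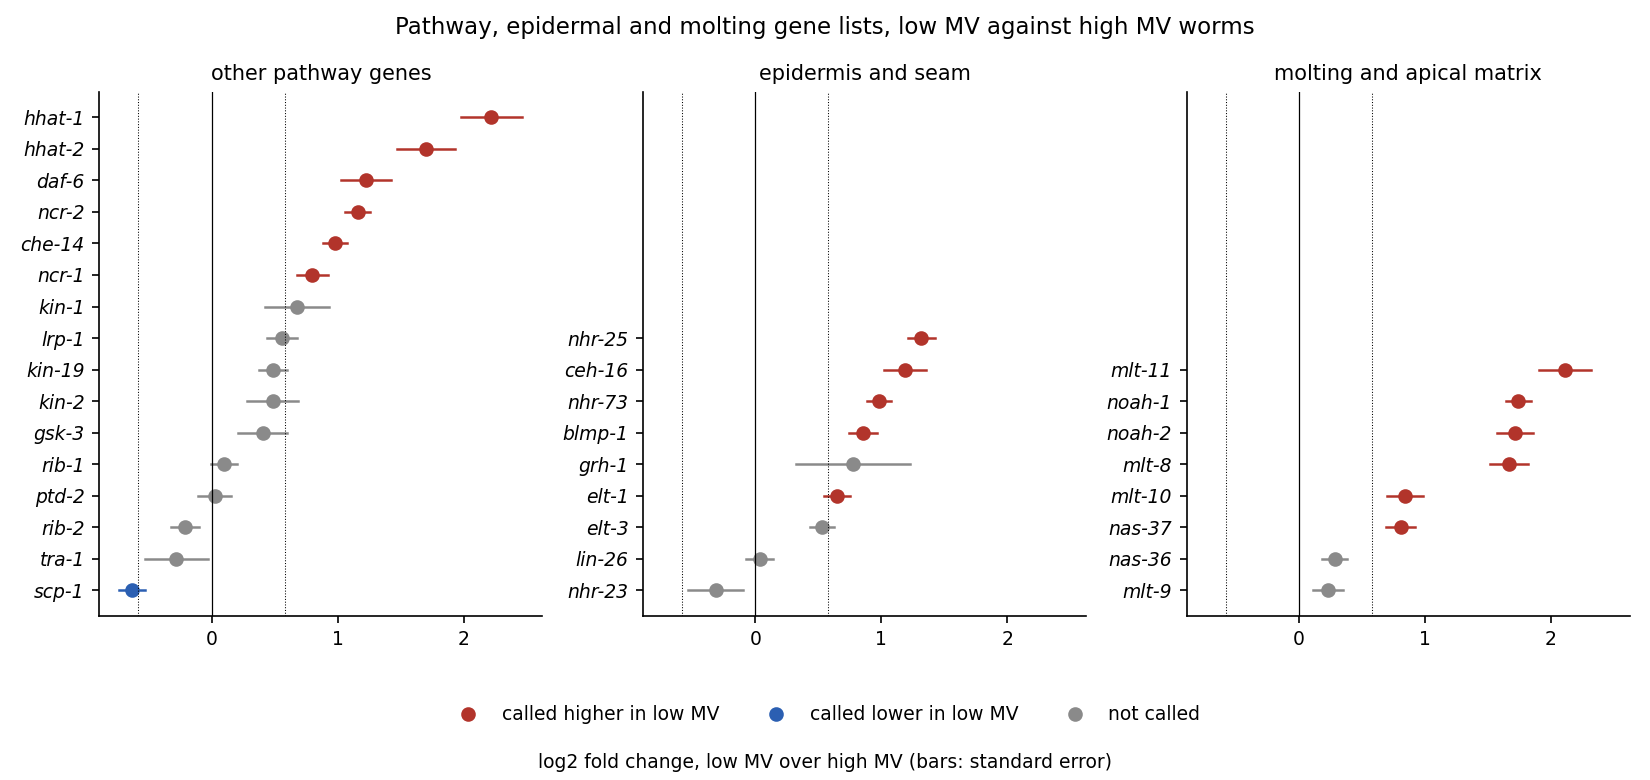
Log2 fold change, low MV over high MV, of the other pathway genes, of the epidermis and seam markers and of the larval molting and apical matrix genes, with bars for the standard error. Of these lists, 6 of 16, 5 of 9 and 6 of 8 genes were called higher in low MV, beside 20.5% of all genes tested. In these lists scp-1 was the only gene called lower.

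Some markers of the cells that express many of these families were also higher in low MV, where 20.5% of all genes were called higher. Of 9 epidermis and seam markers, 5 rose (elt-1, nhr-25, ceh-16, nhr-73 and blmp-1), and the summed intensity of the list was 21051 and 21344 in low MV and 15769 and 14750 in high MV. The epidermal factors lin-26, elt-3 and nhr-23, the last a regulator of molting, had log2 fold changes of 0.03, 0.53 and -0.31 and were not called, nor was grh-1. Of 8 larval molting and apical matrix genes measured, 6 rose, namely mlt-8, mlt-10, mlt-11, nas-37, noah-1 and noah-2, and the summed intensity was 21681 and 19126 in low MV and 8273 and 7963 in high MV. Among 4 cuticle collagen genes, the adult collagen col-19 fell, with a log2 fold change of -3.57, rol-6 rose at 2.78 and bli-2 was not called. The fourth, bli-1, was called lower, with 2.15 and 2.52 in low MV and 3.17 and 3.08 in high MV. Its probe was well above background on neither low MV array and on only 1 high MV array. The summed intensity of the 4 collagen genes, carried by col-19, was 792 and 695 in low MV and 7238 and 5715 in high MV. Of 5 glia, sheath and socket markers, daf-6, mls-2, vab-3 and fig-1 rose and lin-48 fell, with a sum of 4806 and 5106 in low MV and 2122 and 2054 in high MV. Of 5 pharynx markers tnc-2 and pha-4 rose. The sum, carried mainly by tnc-2, was 5175 and 4728 in low MV and 1739 and 2348 in high MV.

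Markers of other tissues gave signal in both groups, with 1 of 5 sperm markers and 5 of 8 early zygotic genes present. The body wall muscle genes unc-15 and unc-27 fell among 5, with a sum of 9346 and 7536 in low MV and 13982 and 13435 in high MV. Of 7 intestine markers only ges-1 was called, lower in low MV, and the sum, carried by the yolk genes, was 393967 and 171842 in low MV and 201389 and 201925 in high MV. Of 7 germ line and oocyte markers only glp-1 was called, lower in low MV, with a sum of 281586 and 269746 in low MV and 354791 and 289700 in high MV. Of 6 neuronal markers rgef-1 was called, higher. The sum, carried mainly by snb-1, was 42008 and 46945 in low MV and 37854 and 38542 in high MV. Of 5 sperm markers spe-9 was called, higher, with a sum of 354 and 414 in low MV and 342 and 333 in high MV. Of 8 early zygotic embryo genes, tbx-37 and tbx-38 were higher and end-3 and pes-10 lower, with a sum of 3792 and 3826 in low MV and 2908 and 2863 in high MV. No marker was below background on all 4 arrays. The part of these cell types in the values of the Hedgehog-related and patched-related genes was not tested.

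**Figure D5:**
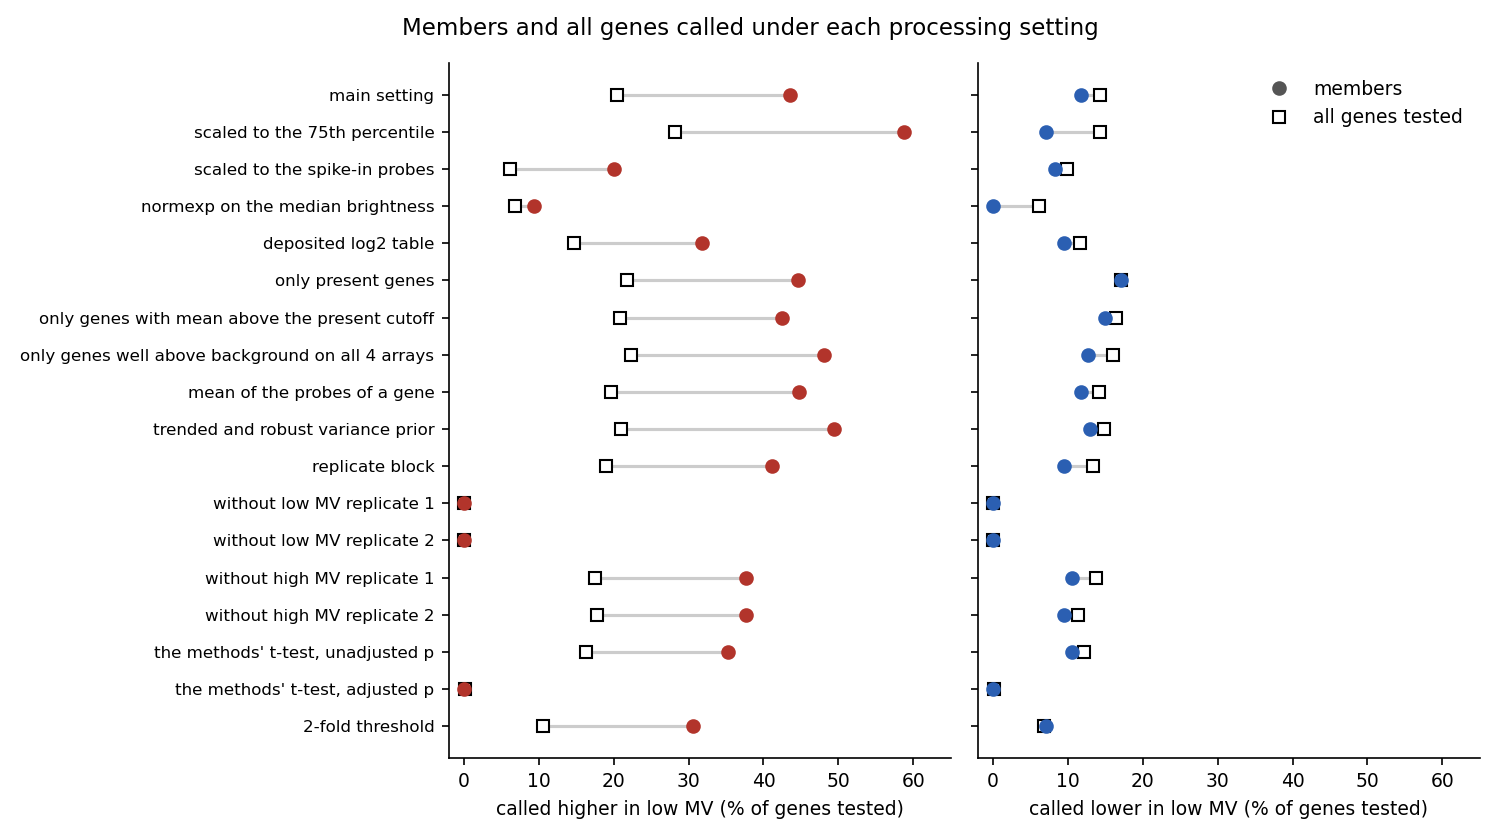
Share of the Hedgehog-related and patched-related genes (dots, members) and of all genes (squares) called in each direction, in percent of the genes tested in each setting. Fits with an array left out over present genes, or with the trended prior, are not drawn. In every setting in which limma made calls, a larger share of the members than of all genes was called higher, and leaving out either low MV array from the fit over all genes left no gene called.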

How the data were processed

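Total RNA from 2 low MV and 2 high MV samples was hybridized to single-colour Agilent arrays. The authors deposited, for each spot, the background-subtracted intensity from Feature Extraction 11.5.1.1, the median brightness of spot and background, and other columns of flags. The authors also deposited a table of log2 values, equal to the quantile-normalized log2 median brightness of all 45220 spots within 5e-09.

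Control spots were left out and the log2 intensity of the others was quantile normalized. Spots with an outlier flag were left out (77 probes), and probes were named through the RefSeq table of WBcel235: of 28446 names, 22694 matched, 619 were kept as sequence names and 5133 named no gene. The brightest probe stood for a gene. Low MV was set against high MV by limma 3.58.1 (R 4.3.3; lmFit, then eBayes), p-values were adjusted by Benjamini-Hochberg over all genes without a filter, and this step was tested on simulated data. Tables and plots were made in Python 3.11.15 with pandas 2.3.3, numpy 2.4.6 and matplotlib 3.10.9. For a probe not well above background in a group, the fold between means sets lower signals to the lowest one well above background on each array. It leaves out the spread between samples.

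Named were all ptc, hog and qua genes, the 5 largest rises and 2 largest falls called per large family, other called falls, called pathway genes and counts of 5 or fewer. Genes grl-10, grl-16, grl-28, ptr-2, ptr-19, ptr-21, grd-3, wrt-5 and wrt-7, the 10 further grl rises, and the uncalled pathway and marker genes were named after their values were seen. The members, lists and tests were chosen with earlier results of these data known. Alternatives were the 75th percentile, the 8 of 10 spike-in probes with over 50% of spots above background, normexp (offset 50, on the median brightness in the files), the deposited table, 3 filters, the probe mean, a trended and robust prior, a 2-fold threshold, the methods' t-test, the replicate number as a block and each array left out, the last also with present genes and the trended prior, added after seeing the data. A slide block could not be fitted, since each group has 1 slide and scan of its own. Promoter, protein and probe sequences were not analysed here.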

Additional observations from a re-analysis of the deposited data

How the results depend on the processing

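The counts of Hedgehog-related and patched-related genes called moved with the scaling. At the 75th percentile 6 genes were lower and 14 ptr genes higher. With the spike-in probes 17 genes were higher (6.15% of all genes), among them 4 wrt, 3 grd, 8 grl and 2 ptr genes, and 2 other pathway genes. With normexp 8 were higher (6.81% of all genes) and 0 lower (6.09%), with 2 wrt, 0 grd, 2 grl and 4 ptr genes, and 1 other pathway gene. Of the 47 called genes, the fold moved by over 1.5 times for 36 with normexp and 12 in the deposited log2 table, and all 47 kept their sign. Over present genes 21 were higher, with 3 wrt, 3 grd and 7 grl genes. Over genes with a mean above the present cutoff, 17 of 40 were higher (20.8% of all such genes) and 6 lower (16.4%). Among the higher were 3 wrt, 2 grd and 5 grl genes, and the grd median was -0.43. A 2-fold threshold left 26 higher (10.5% of all genes) and 6 lower (6.75%), with 4 ptr genes higher. The methods' t-test called 4 wrt genes higher at an unadjusted p, with 30 genes higher (16.2% of all genes) and 9 lower (12.1%) in all, and after adjustment 0 higher, 0 lower, 0 in every family and 0 other pathway genes. The cause of these departures from the main counts was not tested.

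With an array left out, limma assumes that the lone array varies like the other group. The counts then ran from 0 to 39 higher and from 0 to 10 lower, from 0 to 6 for wrt, 0 to 6 for grd, 0 to 17 for grl and 0 to 9 for ptr genes, and from 0 to 9 for the other pathway genes. Every 0 came from leaving out a low MV array in the fit over all genes. With the trended and robust prior, and in the fit over present genes, calls remained when either low MV array was left out. Over all genes tested, the median log2 fold change of the 85 genes was 0.54 without low MV replicate 1. Without low MV replicate 2 it was 0.65.

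The ptc-1 log2 fold change did not keep its sign, at -0.17 with the 75th percentile, -0.54 with the spike-in probes, -0.0057 with the mean of its probes, and -0.078 without high MV replicate 2 to 0.29 without high MV replicate 1. Every other gene that the naming rule picked kept its direction in each of the 25 alternatives that gave it a value.

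With the replicate number as a block, 35 genes were higher and 8 lower. Same-numbered samples correlated at 0.11 in their deviations over 11730 genes, and with 2 numbers they are not taken as pairs. The 4 arrays limit the precision, and for wrt-8, wrt-9, grd-4, grl-5, grl-28 and ptr-19 some arrays were not above background.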
